A study of Mus musculus with 12 samples.

Results

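Transcripts of 9 transcription factors that govern the T helper 1 (Th1) and effector fates of CD4 T cells were followed in follicular helper T (Tfh) cells: Tbx21, Eomes, Runx1, Runx3, Id2, Prdm1, Stat4, Bhlhe40 and Gata3. They were chosen by name as known regulators of these fates, and all 9 were found among the 25793 gene entries of the count table and in the FPKM table. The 12 libraries came from GFP-transduced OT-II CD4 T cells, whose receptor recognises an ovalbumin peptide, sorted as CXCR5hi GFP+ cells from lymph node. In 6 libraries the cells were Pdcd1+/+ (WT), and in 6 they were Pdcd1KI/KI (KI); Pdcd1 encodes the inhibitory receptor PD-1. All 12 shared the C57BL/6 strain, the transfer into B6 recipients together with dsRed-expressing MD4 B cells, the subcutaneous immunization with HEL-OVA, LPS and alum, and the sort on day 5. What the knock-in allele changes, the vector content besides GFP and the age of the mice are not stated in the labels. Each library is named by its genotype and the 2 numbers of its title, with 3 libraries for each genotype and first number. The labels say neither what these numbers stand for nor whether the libraries came from separate mice, so the p-values measure the spread between these libraries, which may be technical.

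Naive CD4 T cells become Th1 cells when interleukin 12 acts through the kinases JAK2 and TYK2 on STAT4; T-bet, the product of Tbx21, is induced and switches on interferon gamma with RUNX3. Eomesodermin (Eomes) is a T-box relative of T-bet that drives cytotoxic and memory programmes, chiefly in CD8 T and NK cells. Id2 binds E proteins and keeps them from DNA, Blimp-1 (Prdm1) represses Bcl6, the master regulator of Tfh cells, and GATA3 directs the opposing Th2 fate. In Tfh cells, the helpers of germinal centre B cells, Bcl6 holds many of these factors down.

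RefSeq promoter windows on GRCm38.p6, from 250 bases before to 50 after an annotated start, were matched by symbol for 8 of the 9 genes (11 windows); Bhlhe40 was not matched. The RUNX letters ACCACA, searched on both strands, stood in 2 of the 11 windows, those of Runx1 and Runx3, against 16.8% of all 32851 windows. Both windows held them as a pair on 1 strand, shown here with the pair in capitals because the flanks differ while an 18-base run is shared. The first lies at chr16:92826028-92826051 on the minus strand, with its first ACCACA 29 bases after the start, and the second at chr4:135120506-135120529 on the plus strand, at -134.
Runx1: aaacaACCACAgaACCACAagttg
Runx3: cctcaACCACAgaACCACAaggcc
Pairs of ACCACA on 1 strand with at most 4 bases between them occurred in 20 of the 32851 windows (0.0609%), from 19 genes. This pair was looked for after the sequences had been seen. Of the other letters searched, CACGTG (E-box) stood in a Runx1 window (7.15% of all windows) and GAAAGTG (bound by Blimp-1) in a Stat4 window (4.81%). None of the 11 held the T-box letters TCACACC (3.98% of all windows), AGATAA for GATA factors (11.2%) or TTCNNNGAA for STAT factors (8.30%). The 250 bases before the Eomes start, chr9:118477939-118478188 on the plus strand, are shown because Eomes had the widest range of FPKM relative to its median among the 7 factors that could be tested; the capitals mark TATATAA, whose first base is at -30. It was also chosen after the sequences were seen and is held by 3.24% of all windows.
Eomes: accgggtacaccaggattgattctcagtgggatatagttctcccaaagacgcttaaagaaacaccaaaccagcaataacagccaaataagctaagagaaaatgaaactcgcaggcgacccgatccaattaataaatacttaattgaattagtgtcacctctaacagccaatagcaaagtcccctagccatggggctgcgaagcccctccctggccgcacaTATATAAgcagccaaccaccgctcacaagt

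On mm9, the build named in the submitters' processing notes, the factors lie on 9 chromosomes. The T-box genes are Tbx21 at chr11:96959385-96976645 (minus strand, 6 exons) and Eomes at chr9:118387330-118395250 (plus, 6 exons). Stat4 is at chr1:52043992-52164032 (plus, 26 exons), and the RUNX genes are Runx1 at chr16:92601712-92826311 (minus, 9 merged exons) and Runx3 at chr4:134676567-134733905 (plus, 9 merged exons). Id2 is at chr12:25778666-25780957 (minus, 3 exons), Prdm1 at chr10:44156983-44248307 (minus, 9 exons), Bhlhe40 at chr6:108610623-108616919 (plus, 5 exons) and Gata3 at chr2:9778705-9811661 (minus, 10 merged exons). Gata3, Runx1, Runx3, Stat4 and Bhlhe40 overlap other annotated genes, among them 9230102O04Rik on the same strand as Gata3. These positions and overlaps come from a GENCODE annotation of mm9, which may not be the one used for counting. Use of strand in counting is not given in the sources used here. Reads of such pairs could be shared or set aside, for the pair on the same strand whatever the use of strand. The values of these 5 genes carry that uncertainty.

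Total gene counts per library ran from 717506 (WT 1-3) to 1801504 (KI 2-2), and 10331 to 11115 genes were detected. WT 1-3 also had the highest share of multi-mapped reads, 43.8% against 26.7% in the lowest library. Pdcd1 itself had a mean of 292 ± 151 CPM over WT libraries and of 70.0 ± 47.2 CPM over KI libraries (SD over 6 libraries; CPM are counts scaled to a TMM-adjusted library total), every KI library lying below every WT library. Its log2 fold change of -2.05 (SE 0.42) had an adjusted p of 0.231 in edgeR's quasi-likelihood test, and -2.24 with adjusted p = 7.62e-06 when the first number was a term of the fit. T cell markers (Cd3d, Cd3e, Cd3g, Cd4, Cd2 and Cd5) summed to 2611 to 3730 CPM in every library. The Tfh markers Cxcr5, Icos, Bcl6 and Pdcd1 summed to 999.8 to 1859 CPM, but moved in unlike directions with the first number. With genotype as a term of the fit, the log2 fold change of first number 2 over 1 was -1.56 for Pdcd1 (adjusted p = 8.38e-05). It was -0.72 for Cxcr5 (adjusted p = 0.00208), 0.76 for Icos (0.0158) and 1.22 for Bcl6 (0.201). In that fit 16.0% of all genes had an adjusted p under 0.05.

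The factors differed widely in level. Stat4 was the most abundant per transcript length, Gata3, Runx3, Eomes, Id2 and Runx1 were intermediate, Tbx21 was low, and Bhlhe40 and Prdm1 were near the limit of detection. Mean FPKM over the 12 libraries (fragments scaled by transcript length and depth, the authors' values; SD) was 57.2 ± 20.1 for Stat4, 21.1 ± 5.68 for Gata3, 15.8 ± 4.07 for Runx3, 12.1 ± 15.1 for Eomes, 10.8 ± 7.32 for Id2, 8.82 ± 2.63 for Runx1 and 2.85 ± 1.51 for Tbx21. Bhlhe40 and Prdm1 had 0.199 ± 0.212 and 0.149 ± 0.329 FPKM. Against all entries of the FPKM table, Stat4 stood at percentile 96.0, Tbx21 at 72.2 and Prdm1 at 52.4 of mean FPKM.

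**Figure D1:**
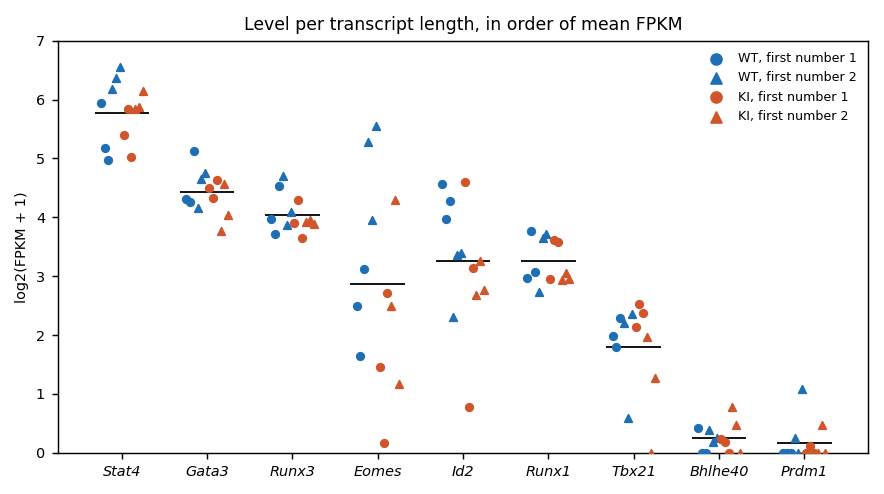
Level of each factor in the 12 libraries as log2(FPKM + 1), in order of mean FPKM; circles are first number 1, triangles first number 2, and each line is the mean of the plotted values. Stat4 lies highest and Bhlhe40 and Prdm1 near 0, while Eomes spans 0.118 to 45.8 FPKM.

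The 8 neighbouring pairs in this order were compared within libraries on log2(FPKM + 1) by exact two-sided sign flips (4096 for each pair), adjusted over the 8 pairs. Stat4 exceeded Gata3 in 11 of 12 libraries (adjusted exact p = 0.00391), Gata3 exceeded Runx3 in 10 (0.0293), and Runx1 exceeded Tbx21 in 12 (0.00391). Tbx21 exceeded Bhlhe40 in 11 of 12 (adjusted exact p = 0.00391), and Runx3 exceeded Eomes in 8 (0.0445). The order of Runx3 and Eomes differed with the first number. Mean FPKM was 15.5 for Runx3 and 3.65 for Eomes with first number 1, and 16.2 and 20.5 with first number 2. Eomes and Id2 were not separated: Id2 had the lower mean FPKM, yet Eomes was above it in only 4 of 12 libraries (adjusted exact p = 0.530). Id2 and Runx1 (0.990) and Bhlhe40 and Prdm1 (0.530) were not separated either. The 5 separated pairs became 3 without any single one of WT 1-2, WT 1-3, KI 1-1 or KI 1-3.

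Within the families, the RUNX pair had the same order in nearly all libraries and the T-box pair did not. Runx3 FPKM exceeded Runx1 FPKM in 11 of 12 libraries. Eomes FPKM exceeded Tbx21 FPKM in 8 of 12 libraries, 3 of 6 with first number 1 and 5 of 6 with first number 2. Mean FPKM was 3.65 for Eomes and 3.61 for Tbx21 with first number 1, and 20.5 and 2.09 with first number 2.

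KI and WT libraries were compared to ask whether the Pdcd1 allele goes with a change of these factors. None of the 7 factors that could be tested passed the threshold (adjusted p under 0.05), where 2 of 7542 genes did (0.0265%). All 7 had a negative log2 fold change in KI, from -0.10 for Tbx21 to -1.85 for Eomes, with a median of -0.32; over all genes tested the median was 0.02, and 48.4% were negative. An unadjusted p under 0.05 was reached by 1 of the 7, Eomes, and by 407 of all genes. These are pools of sorted cells, so fewer cells expressing a factor and less RNA per cell cannot be told apart.

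**Figure D2:**
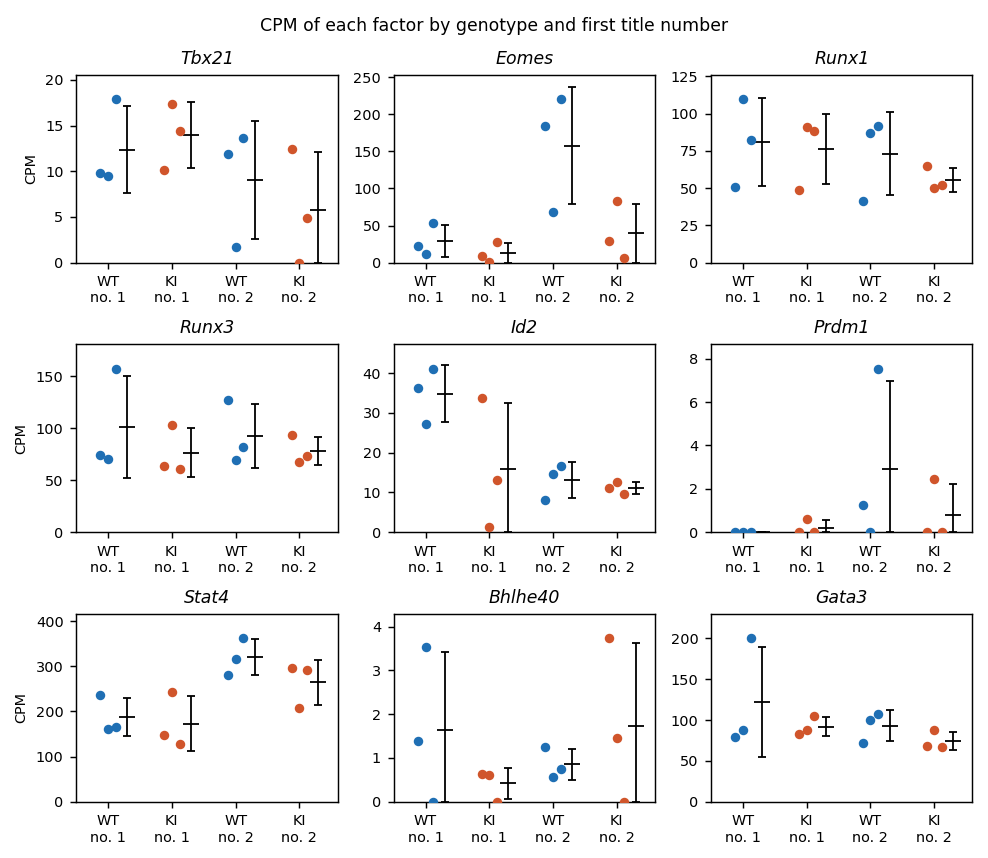
CPM of each factor in the 12 libraries by genotype and first title number (no. 1, no. 2); dots are libraries, the dash is the mean and the bar the SD, drawn no lower than 0. The Eomes panel shows WT with first number 2 at 68.6 to 220 CPM, and Prdm1 and Bhlhe40 never reach 8 CPM.

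Eomes, the T-box factor of cytotoxic and memory programmes, was the most uneven. It was at 22.3, 11.8 and 53.7 CPM in WT 1-1, 1-2 and 1-3 and at 184, 68.6 and 220 CPM in WT 2-1, 2-2 and 2-3. In KI it was at 8.89, 0.620 and 27.5 CPM in the libraries with first number 1 and at 28.7, 83.3 and 6.23 CPM in those with first number 2. WT 2-1 and WT 2-3 stood highest, and 3 KI libraries lay below all WT libraries, but the ranges overlapped. The KI log2 fold change was -1.85 (SE 0.73, 95% interval -3.37 to -0.32, adjusted p = 0.914). Without KI 2-2 it was -2.76 and without the other libraries in turn as little as -1.39, with adjusted p from 0.405 to 0.998.

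Tbx21, the factor that defines the Th1 fate, rested on 0 to 28 reads in a library. Its CPM were 9.77, 9.44, 17.9, 11.9, 1.69 and 13.6 in WT, in title order, and 10.2, 17.4, 14.4, 12.5, 0 and 4.85 in KI. The genotypes overlapped almost fully, and the low libraries were WT 2-2, KI 2-2 and KI 2-3. In KI 2-2 the count was 0, which allows up to 1.46 CPM (3 counts; a limit of counting error only). The log2 fold change was -0.10 with a 95% interval of -1.58 to 1.38, and its sign turned without WT 1-3, KI 2-2 or KI 2-3. Differences of either sign within that interval were not detectable in these 12 libraries. The low counts were not those of the shallowest libraries. KI 2-2, with 0 reads, had the highest total gene count (1801504), and WT 1-3, with 10 reads, had the lowest (717506). The cause of the spread was not tested.

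Stat4, the interleukin 12 signal transducer, was at 160 to 362 CPM in WT (median 259) and 128 to 295 CPM in KI (median 225). Its log2 fold change was -0.22 (SE 0.25, 95% interval -0.75 to 0.31, adjusted p = 0.948), and -0.33 (without KI 2-1) to -0.09 (without WT 2-3) with single libraries left out. The ranges overlapped, with 2 KI libraries below all WT libraries.

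RUNX3 acts with T-bet at the interferon gamma gene, and RUNX proteins silence Cd4 in CD8 T cells. Runx1 ranged from 41.4 to 110 CPM in WT (median 84.5) and from 48.9 to 91.1 CPM in KI (median 58.4), and Runx3 from 69.2 to 157 (median 78.1) and from 61.2 to 104 (median 70.6). The KI log2 fold changes were -0.22 (SE 0.29, adjusted p = 0.954) for Runx1 and -0.32 (SE 0.27, adjusted p = 0.938) for Runx3. With single libraries left out, Runx1 ranged from -0.35 (without WT 2-1) to -0.11 (without WT 1-2). Runx3 ranged from -0.43 to -0.14 (without WT 1-3, its highest library in CPM).

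Id2, the E protein antagonist, was at 36.3, 27.1 and 41.2 CPM in WT 1-1, 1-2 and 1-3 and at 8.16, 14.6 and 16.6 CPM in WT 2-1, 2-2 and 2-3. The KI libraries had 33.7, 1.24 and 13.1 CPM with first number 1 and 11.2, 12.7 and 9.69 CPM with first number 2. High values were thus the 3 WT libraries with first number 1 and KI 1-1, and the genotypes overlapped. The log2 fold change was -0.79 (SE 0.58, 95% interval -1.99 to 0.41, adjusted p = 0.938), and -1.30 without KI 1-1 or -0.54 without KI 1-2.

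Gata3, the Th2 regulator, was at 71.5 to 200 CPM in WT (median 93.7) and 67.2 to 105 CPM in KI (median 85.1). Its log2 fold change of -0.36 (SE 0.26, adjusted p = 0.938) was -0.10 without WT 1-3, which alone exceeded 108 CPM.

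Prdm1 and Bhlhe40, a repressor of Tfh genes and a cofactor of cytokine production in effector T cells, did not pass the filter on low counts. Prdm1 had 2 reads in WT 2-1, 10 in WT 2-3, 1 in KI 1-2 and 5 in KI 2-2, and 0 in the other 8 libraries, where 0 allows up to 1.69 to 5.37 CPM. Bhlhe40 had 0 to 3 reads in every library. On log2(CPM + 1), KI minus WT was -0.30 for Prdm1 and -0.19 for Bhlhe40 (exact two-sided permutation p = 0.727 and 0.719 over 924 splits, smallest possible 0.00216). A difference between genotypes was not detectable for either gene with so few reads.

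**Figure D3:**
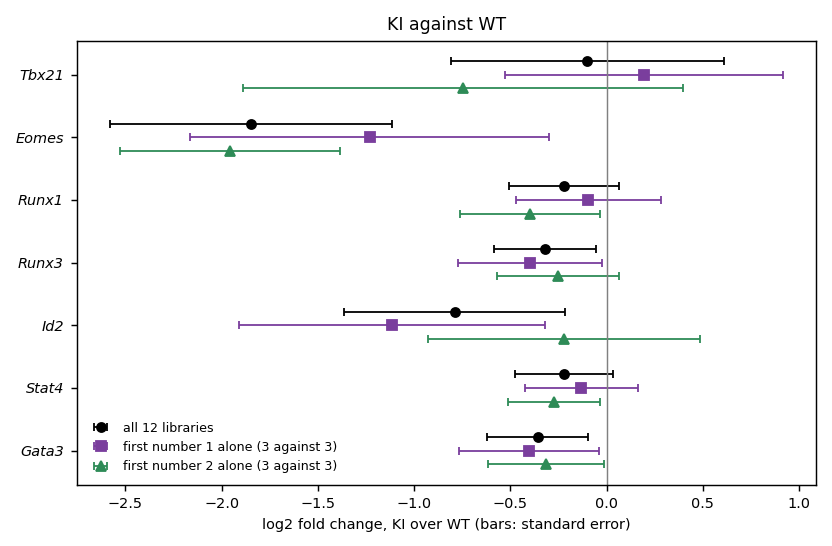
Log2 fold change of the 7 tested factors, KI over WT, from all 12 libraries (circles), first number 1 alone (squares) and first number 2 alone (triangles); bars are standard errors. All 7 all-library values lie below 0, and none passed the test.

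Within each first number alone, 3 libraries stood against 3 and again none of the 7 passed. Eomes had -1.23 (SE 0.93) with first number 1 and -1.96 (SE 0.57) with first number 2, and Id2 had -1.12 and -0.22. Tbx21 had 0.19 and -0.74, and the other 4 factors lay between -0.40 and -0.10. The difference between these pairs, tested as an interaction term, passed for 0 of 7542 genes (0%); 544 had an unadjusted p under 0.05, none of them one of the 7 factors, and DESeq2 called 7 genes. For Eomes the interaction was -0.77 (95% interval -3.04 to 1.51, adjusted p = 0.942), and for Id2 0.89 (-1.30 to 3.09, adjusted p = 0.924).

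More genes changed with the first title number than with genotype. Eomes and Stat4 rose with first number 2, 2 of the 7 tested factors, where 1208 of 7542 genes changed (16.0%) and 639 rose (8.47%). The other 5 had negative estimates and did not pass; the median was -0.30, against 0.01 over all genes. Genotype was a term of this fit. Because many genes changed, 2 of 7 is described and nothing particular to the factors is read from it.

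Eomes was at 20.8 ± 18.8 CPM with first number 1 and 98.5 ± 85.6 CPM with first number 2 (SD, n = 6 each). The log2 fold change was 2.11 (SE 0.56, 95% interval 0.94 to 3.28), a 4.32-fold difference (adjusted p = 0.0134), and 4 of the 6 libraries with first number 2 lay above all with first number 1. In WT alone it was 2.47 (adjusted p = 0.0204) and in KI alone 1.71 (adjusted p = 0.288), and without KI 2-2 it was 1.69 and no longer passed (adjusted p = 0.0880; 0.00477 to 0.0880 over the libraries left out in turn).

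Stat4 was at 237, 160 and 165 CPM in WT with first number 1 and at 282, 317 and 362 CPM in WT with first number 2. In KI it was at 147, 242 and 128 CPM and at 295, 207 and 291 CPM. All but KI 2-2 of the libraries with first number 2 lay above all 6 others. The log2 fold change was 0.69 (SE 0.18, 95% interval 0.31 to 1.07), a 1.61-fold difference (adjusted p = 0.0127). The value was 0.74 in WT alone and 0.62 in KI alone, neither of which passed (adjusted p = 0.0889 and 0.196).

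Id2 and Tbx21 had estimates of the other sign that did not pass. The Id2 value was -0.96 (SE 0.53, 95% interval -2.07 to 0.14, adjusted p = 0.231). In WT alone it was -1.43 (adjusted p = 0.152), and in KI alone -0.52. Tbx21 had -0.90 (SE 0.69, adjusted p = 0.408), -0.45 in WT and -1.38 in KI. Runx1 had -0.30, Gata3 -0.33 and Runx3 -0.04 (adjusted p = 0.483, 0.361 and 0.936), and the sign of the Runx3 value turned in 10 of 21 alternatives. Leaving out WT 1-3 moved Gata3 to -0.09, WT 2-1 moved Runx1 to -0.18, KI 1-1 moved Id2 to -0.57 and KI 2-2 moved Tbx21 to -0.56, none of which passed. For Prdm1 and Bhlhe40 the differences on log2(CPM + 1) were 0.89 and 0.22 (exact permutation p = 0.200 and 0.665 over 400 splits within genotype); both libraries with more than 3 Prdm1 reads had first number 2.

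**Figure D4:**
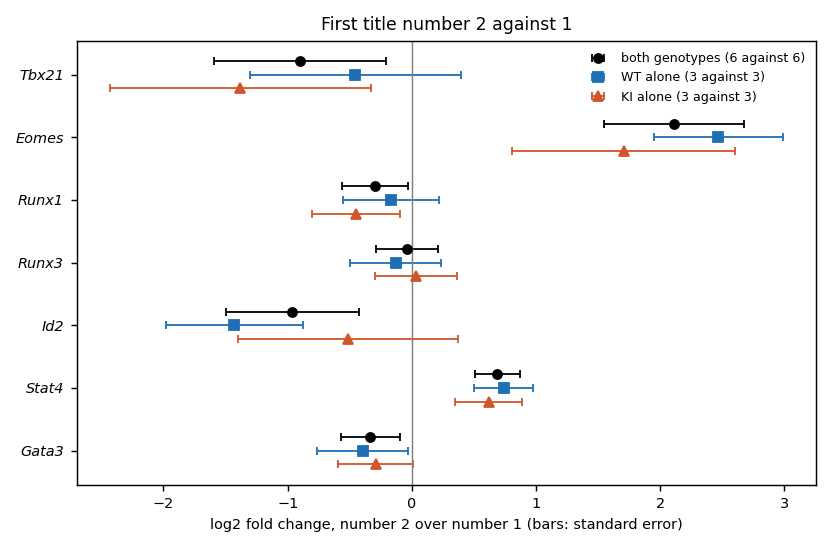
Log2 fold change of the 7 tested factors, first title number 2 over 1, from both genotypes (circles), WT alone (squares) and KI alone (triangles); bars are standard errors. Eomes at 2.11 and Stat4 at 0.69 lie above 0 and passed the test, and the other 5 lie below 0.

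Markers of CD8 T and NK cells, in which Eomes is abundant, moved with the first number. Their 7 genes summed to 9.44 to 32.2 CPM where the first number was 1 and 35.3 to 97.0 CPM where it was 2, without overlap. Of the 7 genes, 2 to 5 were at 0 in each library. Both tested markers rose, where 639 of 7542 genes did (8.47%). Cd8b1 rose by 1.57 (adjusted p = 0.0332) and Klrb1c by 1.78 (adjusted p = 0.0226) on the log2 scale. The NK receptor genes Ncr1 and Klra8 were at 0 in all 12 libraries, and Klrd1 and Klrk1 were at 0 in all with first number 1. Between genotypes the sum overlapped, 9.44 to 77.1 CPM in WT and 18.6 to 97.0 CPM in KI. Regulatory T cell markers (Foxp3, Il2ra and Ikzf2) were also higher with first number 2: they summed to 27.3 to 91.3 CPM (median 34.8) where the first number was 1 and 63.0 to 157 CPM (median 116) where it was 2, with overlap. Of these only Ikzf2 could be tested, and it rose by 1.35 (adjusted p = 0.00253), where 8.47% of all genes rose. Foxp3, the defining gene, was at 0 in 11 of the 12 libraries, 5 of 6 WT and 6 of 6 KI. The part of either marker set in the Eomes and Stat4 differences was not tested.

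Markers of B cells summed to 143 to 337 CPM in WT (median 209) and 116 to 236 CPM in KI (median 210), with Pax5 at 0 throughout. Of 6 tested, 5 had negative KI estimates and Cd22 a positive one (0.55), and the median was -1.29. None of the 6 passed, where 0.0265% of all genes did. Plasma cell markers Igj and Sdc1, of a cell type rich in Blimp-1, summed to 2.25 to 17.4 CPM. Myeloid markers summed to 227 CPM in WT 1-3 and to 1.24 to 46.4 CPM in the other 11. Itgax, Cd14 and S100a8 were at 0 in all 12. In CPM, WT 1-3 was the library highest in Gata3 and Runx3. By FPKM it was highest in Gata3, while Runx3 was higher in WT 2-1 (25.0 against 22.1). Without WT 1-3 the KI values were -0.10 for Gata3 and -0.14 for Runx3. The part of these cells in the KI values of the factors was not tested.

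Genes downstream of the factors were sparse. Of 25 Th1 and cytotoxic effector genes, 9 were tested and none passed with genotype (median log2 fold change -0.67), where 0.0265% of all genes did. Where so few pass, a gene that did not pass is not shown to be unchanged. The smallest p-values belonged to Cxcr3, a chemokine receptor induced by T-bet, with 171 ± 63.9 CPM over WT and 370 ± 86.5 CPM over KI libraries (log2 1.10, adjusted p = 0.231), and Fasl, the death ligand (-4.19, adjusted p = 0.231). When the first number was a term of the fit, Cxcr3 and Fasl each had an adjusted p of 0.0570 and did not pass. Fasl reached 1197 CPM in 1 WT library against 0.692 to 33.0 CPM in KI. With first number 2, 2 of the 9 rose and 1 fell (median 1.05), where 16.0% of all genes changed. The granule protein gene Nkg7 rose from 78.8 ± 46.8 to 328 ± 83.7 CPM (log2 2.09, adjusted p = 4.07e-05), the protease gene Gzmk rose by 2.98 (adjusted p = 0.00101), and Fasl fell by 2.63 (adjusted p = 0.0134).

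Upstream, 15 of 18 receptors and signalling genes of the Th1 pathway were tested. None passed with genotype (median 0.03), where 0.0265% of all genes did. The smallest p-value was that of Il12rb1, an interleukin 12 receptor chain (1.06, adjusted p = 0.917). With first number 2, 2 rose and 2 fell, where 16.0% of all genes changed. Estimates were negative for 13 of the 15 and positive for 2 (median -0.21, against 0.01 over all genes). The 2 positive ones were the kinase genes Jak1 and Jak2, which rose by 0.75 (adjusted p = 0.000747) and 1.05 (0.00434). Tyk2, the kinase partner of Jak2 at the interleukin 12 receptor, fell by 0.95 (adjusted p = 0.0413). Socs3, an inhibitor of cytokine signalling, fell by 2.43 (adjusted p = 0.000119).

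Of 25 relatives and partners, 12 were tested and none passed with genotype (median -0.08), where 0.0265% of all genes did. With first number 2, 4 rose and none fell (median 0.28), where 16.0% of all genes changed. Cbfb, the partner subunit that all RUNX proteins need for firm DNA binding, rose from 21.8 ± 15.7 to 91.8 ± 34.1 CPM (log2 2.11, adjusted p = 0.000387), beside Runx1 and Runx3 values of -0.30 and -0.04. Tcf12, an E protein that Id2 can bind, rose by 1.76 (adjusted p = 0.00133). Ikzf1 and Ikzf2, lymphoid zinc finger factors, rose by 1.40 (adjusted p = 0.000254) and 1.35 (0.00253). By genotype the smallest p-values were those of Ikzf1 (-0.75) and Ikzf2 (-0.59), with adjusted p = 0.919 and 0.938.

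All 19 listed Tfh genes were tested and none passed with genotype (median -0.08), where 0.0265% of all genes did. With first number 2, 4 rose and 3 fell (median 0.10), where 16.0% of all genes changed. Slamf6 (0.87), Btla (1.24) and Sh2d1a (0.74), which encode surface receptors of Tfh cells and a signalling adaptor, rose, and Cxcr5, the receptor used in the sort, fell by 0.72 (adjusted p = 0.000790, 0.00223, 0.00257 and 0.00208). By genotype, Angptl2 (0.62) and Id3 (0.51), an Id2 relative high in Tfh cells, had the smallest p-values (adjusted p = 0.914 each). Of 12 Th2 genes linked to Gata3, only Stat6, Il4ra and Crem were tested. None of these passed with genotype (median -0.16), where 0.0265% of all genes did. With first number 2 Stat6, the interleukin 4 signal transducer, fell by 1.04 (adjusted p = 0.00488), where 16.0% of all genes changed.

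**Figure D5:**
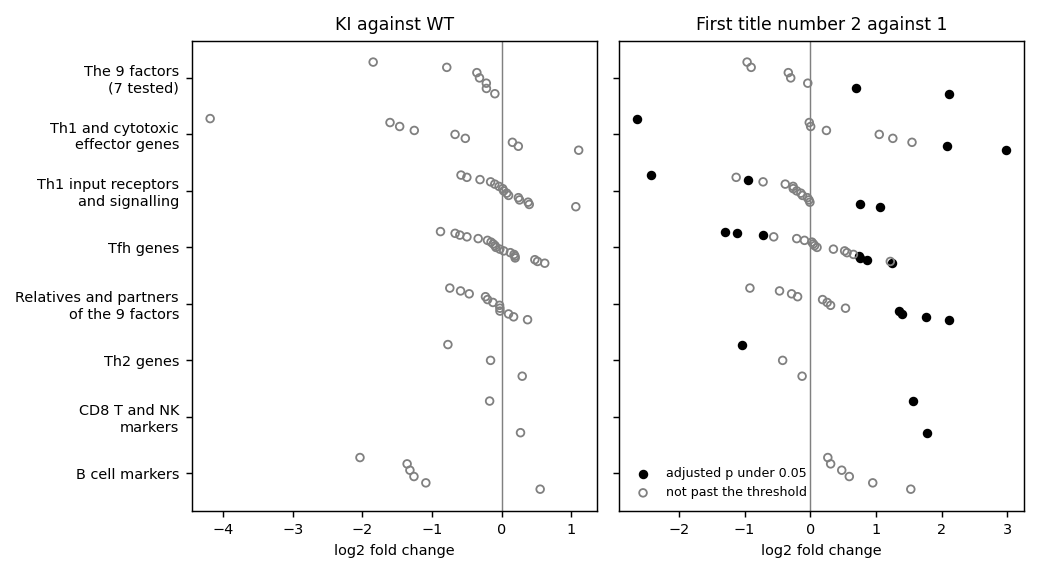
Log2 fold changes of the tested genes of each list for KI over WT (left) and first title number 2 over 1 (right); each circle is a gene, filled where the adjusted p was under 0.05. The left panel has no filled circle, and the right panel has 2 among the 7 tested factors.

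The genes whose levels ran most alike to each factor with a mean of at least 50 counts were sought among 3780 genes, by Pearson r of log2 CPM over the 12 libraries after removal of the first-number means. For Eomes these were Mtmr6 (r = 0.90), Dnttip2 (0.86) and Ifi203 (0.86). Stat4 ran with Taz (0.85), Lamp2 (0.76) and Il10rb (0.75), and Gata3 with Cdv3 (0.88), Prps1 (0.87) and Ndufs6 (0.85). Runx3 ran with Ppil2 (0.90), Ppt1 (0.88) and Limd1 (0.84), and Runx1 with Cmas (0.87), Apeh (0.81) and Phf20l1 (0.79). No gene was named for more than 1 factor. All values come from the same 12 libraries, share their depth and genotype, and are the highest of many, so they are given as a description.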

How the data were processed

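RNA of 12 libraries of 100 to 200 sorted cells was amplified by a modified single-cell protocol, per the labels' protocols. The authors deposited raw read counts per gene (25793 genes, and 5 summary entries left out here) and FPKM values (25819 rows, 27 repeated names, summed). The submitters' processing notes name CASAVA, TopHat2, Cufflinks, HTSeq, DESeq2 and mm9, without versions; strand and annotation release are not given in the sources used here. Gene rows held 46.1% to 60.2% of each library's summed table.

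The count test used edgeR 4.0.16 in R 4.3.3: filterByExpr by genotype (7542 genes kept), TMM scaling, glmQLFit with default settings, glmQLFTest and Benjamini-Hochberg adjustment over all tested genes. Standard errors came from the fold change and F. KI was compared with WT over all 12 libraries without a block; the first title number was tested with genotype as a term. Below the filter, exact permutation tests on log2(CPM + 1) were used. FPKM levels were compared by sign flips. Counting limits of 3 reads cover counting error only, since amplified reads are not independent molecules. Over 30 library pairs of 1 genotype, chi-square per degree of freedom was 9.01 to 43.3; this was a check for repeat deposits of 1 library and does not bear on independence. The tests were checked on simulated data. Genes were named by rule: the 9 factors, Pdcd1, in each list up to 4 called genes with the smallest p-values or else 2 with the smallest, and 3 genes most alike to a factor. 1 gene that this rule names is not reported here. Other names were chosen after their values were seen. The factors and lists were chosen with earlier results of these data known. Alternatives were RLE scaling, DESeq2 1.42.0, voom and FPKM fits (pseudocounts 1 and 0.1) with limma 3.58.1, other filters, title-number blocks, subsets and leaving out each library. Those for the interaction and the order of levels, and the FPKM, blocked and unfiltered edgeR versions of the Prdm1 and Bhlhe40 tests, were added after the data were seen.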

Additional observations from a re-analysis of the deposited data

Results flagged for a closer look

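In 36 sets of 6 libraries (9 factors, by genotype and by first number), a highest or lowest library stood apart by Dixon's 95% criterion in 8. For independent sets of normal values chance flags about 1 in 20, or 1.8 of 36. Here each library lies in a genotype set and in a first-number set, and 1 read among zeros is always flagged. The 8 therefore cannot be read as an excess over 1.8. Eomes in KI 2-2, at 83.3 CPM from 171 reads, stood apart among KI libraries (next 28.7 CPM). Id2 in KI 1-1, at 33.7 CPM from 53 reads, stood apart among KI libraries (next 13.1 CPM). Gata3 in WT 1-3, at 200.4 CPM from 112 reads, stood apart among WT libraries (next 108 CPM) and among those with first number 1 (next 105 CPM); WT 1-3 has the lowest total count. Prdm1 was set apart by few reads. WT 2-3, at 7.55 CPM from 10 reads, stood apart among WT libraries and among those with first number 2. KI 2-2, at 2.44 CPM from 5 reads, stood apart among KI libraries, and KI 1-2, at 0.620 CPM from 1 read, among those with first number 1. The causes of these gaps were not tested.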

How the results depend on the processing

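With KI against WT, 0 factors passed under every alternative run, while the number of genes called moved from 2 to 11 (DESeq2), 1 (limma-voom), 4 (no filter), 0 (limma on FPKM with pseudocount 1 or 0.1), 4 (replicate block by the first number), 1 (first number 2 alone) and 0 to 2 (each library left out in turn). Of 191 alternative values for single factors, 183 kept direction and side of the threshold and 8 turned sign: Tbx21 with first number 1 alone (0.19) and without single libraries (-0.35 to 0.18), Prdm1 without single libraries (-0.57 to 0.18), and Bhlhe40 on FPKM with pseudocounts 1 (0.069) and 0.1 (0.17) and without single libraries (-0.47 to 0.047). The cause was not tested. Leaving out 1 library moved Id2 to between -1.30 and -0.54. Same-numbered libraries of the 2 genotypes deviated together with r of 0.0828 to 0.258 (6 pairs; those sharing only the first number 0.0392 to 0.390, mean 0.166 against 0.164), and libraries of unlike first number with -0.328 to 0.0135 (18 pairs). The first number thus groups libraries across genotypes. Deviations were taken from genotype means, so the negative r of unlike first numbers mirrors the positive r and is no separate support. No further pairing by the second number was seen in the means (0.164 against 0.166), and it was not tested. Under a replicate block Eomes was -1.63 by the first number (adjusted p = 0.393) and -1.99 by both numbers (adjusted p = 0.288), within 0.288 to 0.998 over all its alternatives, and no factor passed.

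For the first number, the 1208 genes called became 795 (FPKM with pseudocount 0.1), 381 (WT alone), 359 (KI alone) and 751 to 1252 (libraries left out, lowest without KI 2-2). The 2 factors called became 1, 1, 0 and 1 to 2 in the same order. Eomes on FPKM with pseudocount 0.1 was 2.33 (adjusted p = 0.0637). Of 175 values for single factors, 159 kept direction and side of the threshold, 5 no longer passed and 11 turned sign: Runx3 under limma-voom (0.022), a mean of at least 50 counts (0.014), FPKM with pseudocounts 1 and 0.1 (0.065 and 0.070), KI alone (0.035) and without single libraries (-0.16 to 0.17), and Bhlhe40 without single libraries (-0.022 to 0.50). Tbx21 and Id2 had no value at a mean of at least 50 counts.

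The interaction called 0 genes, 7 with DESeq2 and 0 to 24 without single libraries (24 without WT 1-1, 1 without WT 1-3). The order of levels separated 5 neighbouring pairs, and 3 to 6 without single libraries (6 without WT 2-3). Each library held 100 to 200 cells, and Tbx21, Prdm1 and Bhlhe40 were the factors with the fewest reads.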
